A study of Mus musculus with 8 samples.

Results

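Scrib, Llgl1, Llgl2, Dlg5, Lin7a, Lin7b, Lin7c, Cask, Mpp2 and Mpp3 encode cell polarity proteins of the Scribble and Lin7-Cask modules, to which SAP97, the product of Dlg1, is linked. The genes were chosen by symbol for this known role, and all 10 were found among the 25834 genes of the deposited table. Hippocampal RNA of 8 male mice, 4 control and 4 SAP97-cKO, was sequenced as 1 library per mouse, and p-values measure the spread between these mice. SAP97-cKO mice carried Nestin-cre+/- together with SAP97fl/fl, that is, a floxed Dlg1 gene and a Cre recombinase under the Nestin promoter, which is active in the neural precursors of neurons and glia. The control group drew on littermates that were Nes-cre+/-, SAP97fl/fl or wild-type, and the sources used here give neither the genotype of each control library nor the age at sequencing. The question for these genes was whether the mRNA of these partners differed when Dlg1 was deleted.

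Scribble, Dlg and Lgl proteins form a module that marks the basolateral side of epithelial cells, and in neurons Scribble and the Dlg proteins are scaffolds of the synapse. Cask is a MAGUK scaffold that forms a stable complex with Lin7 (also called Veli or MALS) and the adaptor Mint1, which has been studied on both sides of the synapse and in receptor transport. The Mpp proteins and those forms of SAP97 that carry an L27 domain enter such complexes through it. L27 domains are the short helical domains by which these scaffolds pair. In the splice form SAP97α, the study states, a putative palmitoylation motif stands in its place. Counts per gene do not separate the forms.

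The 3 Lin7 genes are close relatives, and the windows of their coding sequence printed here show how alike they are where Lin7a and Lin7c share their longest run of bases. Each window holds 60 bases of coding sequence that span the junction of exons 4 and 5, read 5′ to 3′ along the transcript, and capitals mark the bases that are the same in all 3 genes. On GRCm38 the windows run within chr10:107382702-107412000 (plus strand) for Lin7a, chr7:45368420-45369152 (minus strand) for Lin7b and chr2:109896434-109897293 (plus strand) for Lin7c, intron included.
Lin7a: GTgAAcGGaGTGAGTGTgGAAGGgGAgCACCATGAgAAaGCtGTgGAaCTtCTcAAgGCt
Lin7b: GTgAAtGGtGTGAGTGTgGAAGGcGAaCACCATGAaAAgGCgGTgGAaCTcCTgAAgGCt
Lin7c: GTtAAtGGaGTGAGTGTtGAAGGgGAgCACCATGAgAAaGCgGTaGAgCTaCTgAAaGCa
In this window 45 bases were the same in all 3 genes, and all 15 that differed lay at the third base of a codon. Over the whole coding sequence, placed without gaps, Lin7a matched Lin7b at 67.8% of 624 bases and Lin7c at 68.2% of 594 bases, and Lin7b matched Lin7c at 70.5% of 594 bases. The longest run shared by Lin7a and Lin7c was 23 bases, gaaggggagcaccatgagaaagc, and the longest run shared by Llgl1 and Llgl2 was 20 bases, gtgcggttctgggacgcctc. Mpp2 and Mpp3 shared at most 12 coding bases in a row. A read longer than these runs differs between the paralogs by at least 1 coding base, while reads within them could belong to either gene.

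Of the 10 genes, 4 lie on chromosome 11 of GRCm38, namely Llgl1 (60699723 to 60714186), Llgl2 (115824049 to 115855780), Mpp3 (101999652 to 102028461) and Mpp2 (102057015 to 102088515). Mpp2 and Mpp3 are neighbours on the minus strand, with 28553 bases between them. Scrib lies on chromosome 15 (76047158 to 76069784), Dlg5 on chromosome 14 (24133953 to 24245920) and Cask on the X chromosome (13517080 to 13851367). Lin7a lies on chromosome 10 (107271686 to 107421474), Lin7b on chromosome 7 (45367891 to 45370583) and Lin7c on chromosome 2 (109890853 to 109901003). Exons of Llgl1 overlap those of Flii on the other strand over 64 bases, and exons of Lin7b overlap those of Mtag2 over 58 bases. The sources used here do not say if reads were counted by strand, so reads in these stretches cannot be assigned with certainty.

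Each library held 37388177 to 37426572 counts. The targeted gene followed the labels, since Dlg1 had 4338 ± 336 TMM-normalized counts (SD, n = 4) in control and 2393 ± 470 (SD, n = 4) in SAP97-cKO hippocampi, with no overlap between the groups and a log2 fold change (log2FC, SAP97-cKO over control) of -0.86 with an SE of 0.12 (edgeR adjusted p = 0.143, Benjamini-Hochberg over all genes tested). The Dlg1 difference was not past the FDR of 0.25 with the meningeal fibroblast level as a covariate (log2FC -0.40, edgeR adjusted p = 0.997), with the oligodendrocyte level (-0.81, 0.553), or when control replicate 2 (-0.83, 0.424), SAP97-cKO replicate 3 (-0.80, 0.524) or SAP97-cKO replicate 4 (-0.78, 0.346) was left out. Counts per gene take in all exons of Dlg1, so these levels and fits do not measure how complete the deletion was. The study reports a much steeper fall of reads on an exon of the targeted gene. It also states that the protein was checked by western blot in each animal before sequencing. TMM normalization scales each library for its depth and composition, and all levels below are on this scale unless stated. Marker genes of other tissue varied between the libraries. Summed CPM, the counts scaled to a common library total, of 10 meningeal fibroblast genes were 255 to 461 in control and 158 to 253 in SAP97-cKO libraries, those of 10 choroid plexus genes 458 to 9900 and 258 to 3315, and those of 8 oligodendrocyte genes 5765 to 9357 and 4549 to 8155. The part of these differences in any result was not tested beyond the fits given beside it. Of these lists, 6 of 10 meningeal fibroblast genes were past the threshold in edgeR, beside 0.295% of all genes tested. None of the choroid plexus or oligodendrocyte genes were. The 6 were Col1a2, Col3a1, Slc6a13, Ogn, Aldh1a2 and Slc22a6. All 6 are in the study's own list of changed genes from the same mice, so their count is no independent result. The meningeal fibroblast covariate holds these genes, so fits with it cannot tell tissue make-up and genotype apart. In edgeR 0 of 10 choroid plexus and 5 of 8 oligodendrocyte genes, all 5 lower, had an unadjusted p under 0.05. Of all genes tested 11.7% did, 7.01% in the lower direction. The hippocampal neuron markers Prox1, Neurod6, Wfs1 and the others of an 8-gene list were all counted in every library. In tissue of this kind, fewer cells of a type and less RNA per cell cannot be told apart.

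None of the 10 polarity partners passed the test between SAP97-cKO and control hippocampi at the FDR of 0.25 that the study uses. In the same edgeR comparison 48 of 16251 genes tested, or 0.295%, were past that threshold, 46 of them lower (0.283%) and 2 higher (0.0123%) in SAP97-cKO. All 10 genes passed the filter on low counts, and their adjusted p-values ran from 0.400 to 0.978 (quasi-likelihood test of edgeR, adjusted after Benjamini-Hochberg over all genes). Limma-voom also called 0 of 10, with 0.308% of all genes past the threshold, as did DESeq2, with 6.36%, and edgeR with the replicate number as a block, with 1.58%. Of the 10, only Mpp2 had an unadjusted p under 0.05 (0.0357) in edgeR, in the higher direction. Of all genes tested 11.7% did, 7.01% lower and 4.73% higher. In none of the 10 genes were the 2 groups of libraries fully apart, beside 6.25% of all genes tested, 3.47% lower and 2.78% higher. The fold changes were above 0 for 6 genes and below 0 for 4, with a median of 0.042 on the log2 scale, where the median of all genes tested was -0.012. The median size of the change, whatever its sign, was 0.084 for the 10 genes and 0.123 for all genes tested.

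**Figure D1:**
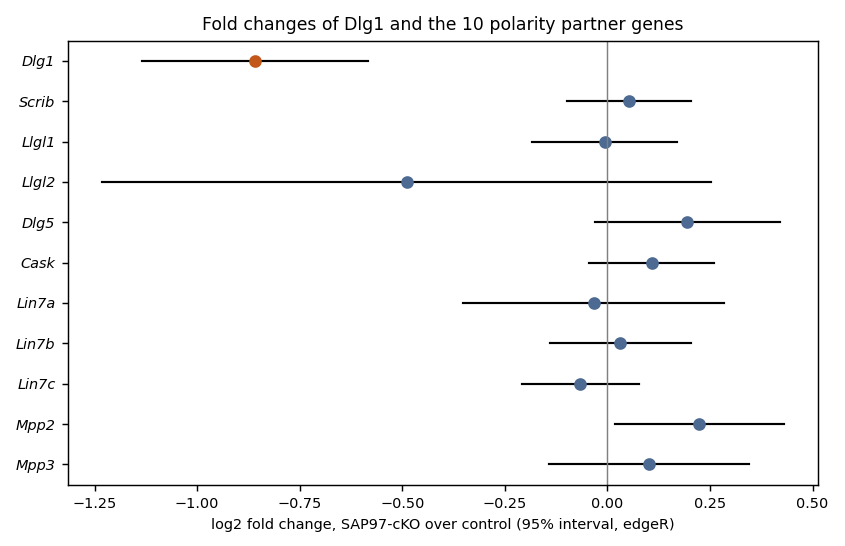
Log2 fold change (SAP97-cKO over control, x axis) of Dlg1 and the 10 polarity partner genes (y axis); points are the edgeR estimates and lines their 95% intervals, 4 mice per group. Dlg1 (orange) lies below 0 at -0.86, the Mpp2 interval of 0.018 to 0.43 is the only one of the 10 that leaves out 0, and the Llgl2 interval is the widest.

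The 95% intervals of the log2 fold changes say how large a change these data leave room for. For 9 of the 10 genes the whole interval lay within 0.5 of 0 on the log2 scale, and the bound farthest from 0 among these 9 was 0.43, for Mpp2. The exception was Llgl2, the gene with the fewest reads, whose interval ran from -1.23 to 0.25.

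The basolateral module was represented by Scrib and the Lgl genes. Scrib, a scaffold with leucine-rich repeats and PDZ domains, had 1349, 1340, 1265 and 1271 normalized counts in the control libraries and 1463, 1349, 1365 and 1243 in the SAP97-cKO libraries. The groups overlapped, with the highest and the lowest value both in SAP97-cKO mice. For Scrib the log2FC was 0.052 (SE 0.068, edgeR adjusted p = 0.761), and its 95% interval ran from 93.4% to 115% of the control level. Llgl1, the Lgl gene of the brain, had 2141, 2416, 2413 and 2533 normalized counts in controls and 2670, 2209, 2332 and 2246 in SAP97-cKO. SAP97-cKO replicate 1 was above all controls and the other 3 lay inside the control range. For Llgl1 the log2FC was -0.0070 (SE 0.080, edgeR adjusted p = 0.978), with an interval of -0.18 to 0.17 on the log2 scale.

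Llgl2, the Lgl gene that is best known from epithelia, had the lowest counts of the 10. It had 47, 82, 68 and 44 raw counts in the control libraries and 33, 73, 33 and 28 in the SAP97-cKO libraries. SAP97-cKO replicate 2 stood with the 2 highest controls, while the other 3 SAP97-cKO libraries lay below every control. The normalized levels were 59.4 ± 18.0 (SD, n = 4) in control and 42.2 ± 20.4 (SD, n = 4) in SAP97-cKO, which gave a log2FC of -0.49 (SE 0.33, edgeR adjusted p = 0.562). The exact two-sided permutation test over the 70 assignments of 8 libraries gave p = 0.200, where 0.0286 is the smallest p that 4 against 4 allow.
The 3 libraries with the most Llgl2 were also the 3 with the highest summed choroid plexus genes, an epithelium that can come along in a hippocampal dissection. These sums were 9900 CPM in control replicate 2, 5616 CPM in control replicate 3 and 3315 CPM in SAP97-cKO replicate 2, and at most 1899 CPM in the other 5 libraries. With the mean choroid plexus level as a covariate the log2 fold change of Llgl2 was -0.18 (SE 0.25), without those 3 libraries it was -0.47 (0.29), and with the meningeal fibroblast level as a covariate it was 0.61 (0.57). Without SAP97-cKO replicate 2 alone it was -0.89 (0.28), with an unadjusted p of 0.0105 and an adjusted p of 0.361 from edgeR, and without control replicate 2 alone it was -0.30 (0.35), with an adjusted p of 0.781. None of the other 3 fits was past the threshold either, with adjusted p-values from edgeR of 0.722 to 0.997.

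Dlg5, a large MAGUK that works in epithelial polarity and cell adhesion, had 2208, 1755, 2012 and 1545 normalized counts in controls and 2087, 2135, 2254 and 2130 in SAP97-cKO. The SAP97-cKO libraries were close together, with an SD of 71.6 against 290 in controls, and 1 of them was above all controls. Its log2FC was 0.19 (SE 0.10, edgeR adjusted p = 0.465; interval of 97.9% to 134% of control). Without control replicate 1, the control with the highest level, it was 0.28 (adjusted p = 0.214 from edgeR), past the threshold, in a comparison where 10.2% of all genes were past it. Without control replicate 4, the control with the lowest level, it was 0.11 (adjusted p = 0.581 from edgeR).

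**Figure D2:**
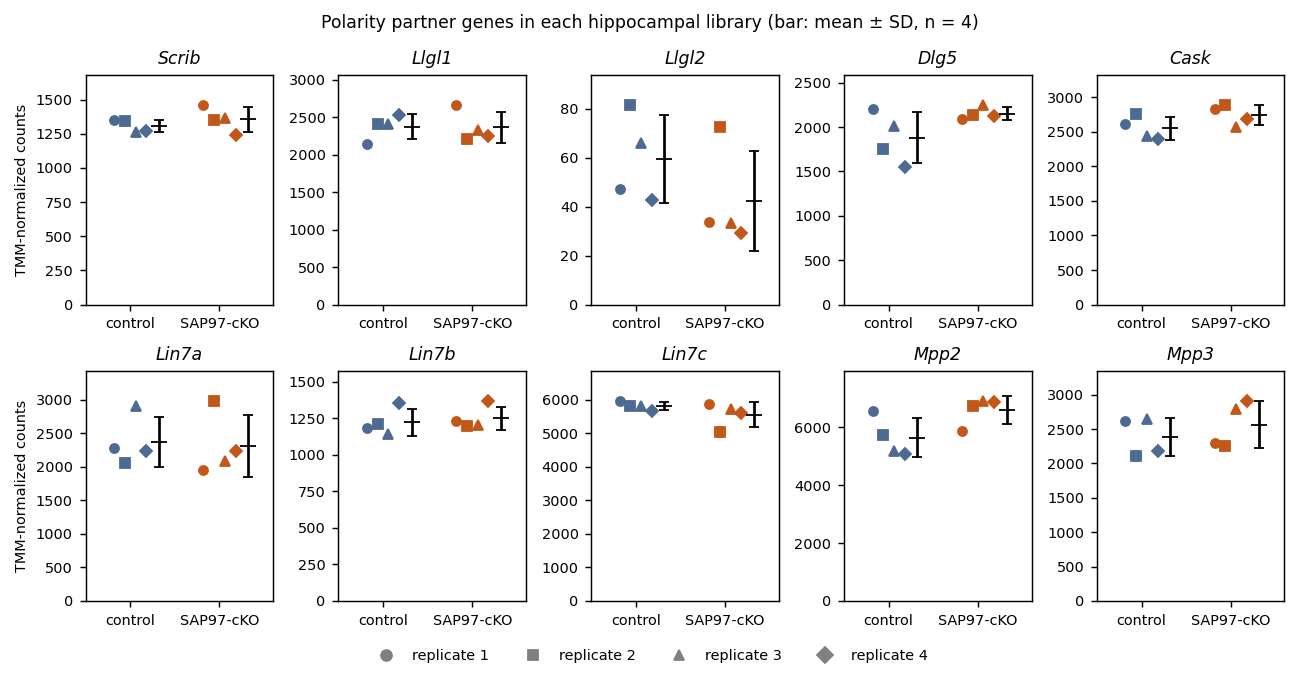
TMM-normalized counts (y axis, from 0) of the 10 genes in the 4 control (blue) and 4 SAP97-cKO (orange) libraries, 1 point per library with its shape giving the replicate number, and bars giving mean ± SD (n = 4). The groups overlap in every panel, and Llgl2 stands apart by its low level of 29.1 to 81.7 counts.

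No gene of the Lin7-Cask complex passed the test. Cask, the MAGUK scaffold of the complex, had 2620, 2757, 2438 and 2393 normalized counts in controls and 2838, 2896, 2577 and 2689 in SAP97-cKO. SAP97-cKO replicates 1 and 2 were above all controls, and the other 2 lay inside the control range. For Cask the log2FC was 0.11 (SE 0.068, edgeR adjusted p = 0.535; exact two-sided permutation test, p = 0.143), with an interval of 97.0% to 120% of control. Gpr34 and Gpr82 lie within the span of Cask on the other strand, and neither shares an exonic base with it.

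Lin7c, like the other Lin7 genes, encodes a small protein with an L27 and a PDZ domain. Lin7c had the highest count of the 3 Lin7 genes and the tightest controls of the 10 genes. It had 5962, 5814, 5819 and 5654 normalized counts in controls, a coefficient of variation of 2.17% where the median of all genes tested was 12.3%. The SAP97-cKO libraries had 5865, 5026, 5733 and 5588, and SAP97-cKO replicate 2 was well below the rest. Its log2FC was -0.066 (SE 0.065, edgeR adjusted p = 0.680; interval of 86.5% to 106% of control).
Lin7a varied more between mice than any other of the 10 genes but Llgl2. It had 2282, 2051, 2901 and 2230 normalized counts in controls and 1954, 2982, 2082 and 2229 in SAP97-cKO. Control replicate 3 and SAP97-cKO replicate 2 were high, and the other 6 libraries of both genotypes lay between 1954 and 2282. For Lin7a the log2FC was -0.033 (SE 0.14, edgeR adjusted p = 0.938; interval of 78.4% to 122% of control).
Lin7b had 1182, 1211, 1140 and 1356 normalized counts in controls and 1229, 1198, 1203 and 1368 in SAP97-cKO. The ranges overlapped over most of their length, and log2FC was 0.032 (SE 0.077, edgeR adjusted p = 0.884; interval of 90.8% to 115% of control).

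The Mpp genes encode MAGUKs that carry L27 domains and bind Lin7. Mpp2 had the smallest p of the 10 genes, rank 1450 among the 16251 genes tested. It had 6562, 5752, 5185 and 5094 normalized counts in controls and 5878, 6722, 6913 and 6872 in SAP97-cKO. SAP97-cKO replicates 2, 3 and 4 were above all controls, while SAP97-cKO replicate 1 was below control replicate 1. The means were 5648 ± 675 (SD, n = 4) and 6597 ± 486 (SD, n = 4), which gave a log2FC of 0.22 (SE 0.093, edgeR adjusted p = 0.400; exact two-sided permutation test, p = 0.0571). Its interval ran from 101% to 135% of the control level. Without control replicate 1 log2FC was 0.30 (adjusted p = 0.185 from edgeR), past the threshold, in a comparison where 10.2% of all genes were past it. With the other libraries left out in turn Mpp2 was not past it.
Mpp3, its neighbour on chromosome 11, had 2611, 2114, 2648 and 2186 normalized counts in controls and 2299, 2251, 2797 and 2910 in SAP97-cKO. Each group held a pair of lower and a pair of higher libraries, and log2FC was 0.10 (SE 0.11, edgeR adjusted p = 0.705; interval of 90.7% to 127% of control). For Mpp3 it ran from 0.040 without SAP97-cKO replicate 4 to 0.17 without control replicate 3.

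The levels of Mpp2 and Dlg5 ran opposite to the level of oligodendrocyte genes across the libraries. SAP97-cKO replicates 2, 3 and 4 and control replicate 1 had the 4 highest levels of Mpp2 and the 4 lowest oligodendrocyte sums, at 4804, 4934, 4549 and 5765 CPM. SAP97-cKO replicate 1 and control replicates 2, 3 and 4 had oligodendrocyte sums of 8155, 8526, 7780 and 9357 CPM and the 4 lowest levels of Mpp2. The same 4 libraries had the 4 lowest levels of Dlg5. With the mean oligodendrocyte level as a covariate the log2 fold change of Mpp2 was 0.074 (SE 0.077) and that of Dlg5 was 0.072 (0.10), with adjusted p-values from edgeR of 0.981 and 0.984. Of the 8 oligodendrocyte genes, 5 were lower at an unadjusted p under 0.05 in edgeR, beside 7.01% of all genes tested. This covariate thus follows genotype in part, and the fit cannot tell tissue make-up and genotype apart. With the meningeal fibroblast covariate the log2 fold changes of Mpp2 and Dlg5 were 0.37 and 0.18. With the choroid plexus covariate they were 0.23 and 0.23, and without the 3 choroid plexus-rich libraries 0.18 and 0.21. Summed CPM of 8 neuronal genes was 7351 to 8160 in control and 7759 to 8823 in SAP97-cKO libraries. The 4 highest neuronal sums lay in the same 4 libraries as the most Mpp2. They were 8549, 8284 and 8823 CPM in SAP97-cKO replicates 2, 3 and 4 and 8160 CPM in control replicate 1. The levels of these 8 neuronal genes and of the oligodendrocyte genes thus split the libraries in the same way and cannot be told apart here. The sums of the hippocampal neuron markers split them otherwise, at 1444 CPM in SAP97-cKO replicate 1 and 1008 CPM in SAP97-cKO replicate 2. In this list SAP97-cKO replicates 3 and 4 and control replicate 1 had 1319, 1466 and 1334 CPM. Control replicates 2, 3 and 4 had 1175, 1228 and 1004 CPM. In edgeR 3 of the 8 neuronal genes had an unadjusted p under 0.05, all 3 higher in SAP97-cKO, beside 4.73% of all genes tested in that direction. The part of tissue make-up in the levels of Mpp2 and Dlg5 was not tested beyond these fits.

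**Figure D3:**
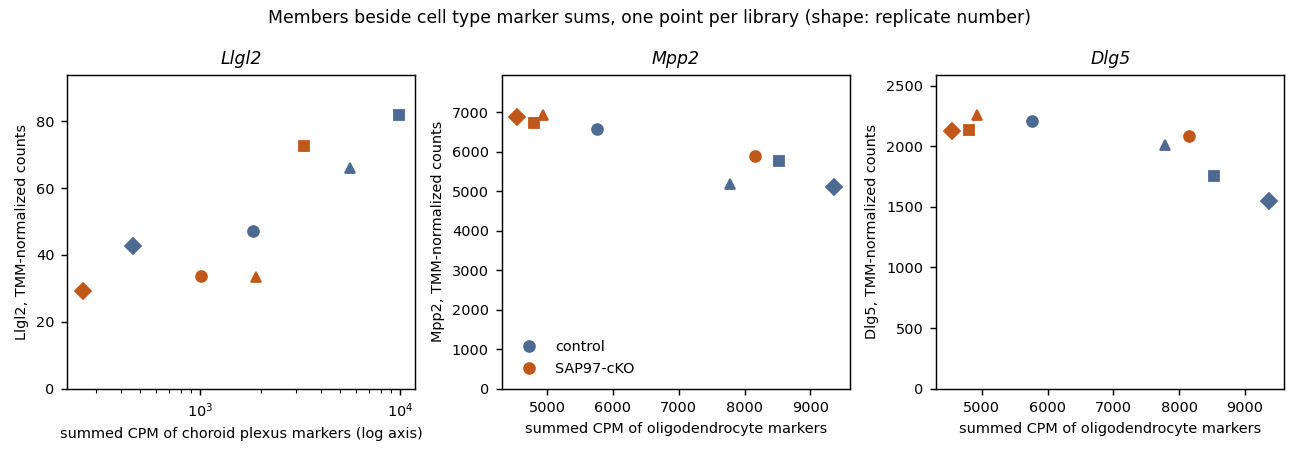
TMM-normalized counts (y axes, from 0) of Llgl2, Mpp2 and Dlg5 in each library against the summed CPM (x axes) of 10 choroid plexus genes (left, log axis) or 8 oligodendrocyte genes (middle and right); 4 control (blue) and 4 SAP97-cKO (orange) libraries, with the shape giving the replicate number. Llgl2 is highest in the 3 libraries richest in choroid plexus genes, and Mpp2 and Dlg5 are lowest in the 4 libraries with oligodendrocyte sums of 7780 to 9357 CPM.

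Levels were compared between genes per kilobase of exon. Over the 8 libraries the normalized counts per kilobase averaged 1274 for Mpp2 and 1257 for Lin7c, whose ranges overlapped. Lin7b (845) and Lin7a (706) came next, and their ranges overlapped too. At the exon lengths used here, Llgl1 (488) stood alone, below Lin7a and above Dlg1, which had 404 ± 31.3 (SD, n = 4) in control and 223 ± 43.8 (SD, n = 4) in SAP97-cKO. Cask (290), Mpp3 (264), Dlg5 (237) and Scrib (206) formed a run in which each overlapped the next. Llgl2 was lowest at 10.5, far below Scrib. The gene end in the deposited table lies 3669 bases beyond the annotated end of Lin7a, so its exons may have been counted over a longer stretch than the 3.31 kilobases used here, and its level per kilobase would then be lower. With those bases added, 6.98 kilobases in all, Lin7a averaged 335 per kilobase (280 to 427 over the libraries), below every library of Llgl1 and within the range of Dlg1, so its place in this order is not fixed. For Dlg1 the deposited gene end lies at -1573 bases from the annotated end. The deposited coordinates carry a margin of 200 bases, which this value still includes and the 3669 bases of Lin7a leave out. The exons of Dlg1 may thus have been counted over a shorter stretch than the 10.7 kilobases used here. The Dlg1 level per kilobase would then be higher, so its place below Llgl1 is not fixed either.

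The make-up of the paralog families, which does not depend on library scaling, was compared by 6 measures. Of the summed Lin7 counts per kilobase, Lin7c took 45.4% ± 1.82 (SD, n = 4) in control and 44.2% ± 3.75 (SD, n = 4) in SAP97-cKO libraries. Lin7b took 29.5% ± 2.54 and 30.7% ± 1.65, and Lin7a 25.1% ± 3.18 and 25.1% ± 4.58 (SD, n = 4 in each group). With the longer Lin7a its share was 13.8% in both groups, Lin7b took 34.0% and 35.4%, and Lin7c 52.3% and 50.9%. Lin7c was the largest of the 3 shares in every library, from 39.3% in SAP97-cKO replicate 2 to 47.6% in SAP97-cKO replicate 1.
Llgl2 made up 2.44% ± 0.695 of the Lgl genes in control and 1.79% ± 0.943 in SAP97-cKO (SD, n = 4). Mpp3 made up 17.9% ± 2.10 of Mpp2 and Mpp3 in control and 16.6% ± 1.37 in SAP97-cKO (SD, n = 4). The log2 ratio of the Lin7 sum to Cask was 3.35 ± 0.134 in control and 3.21 ± 0.0724 in SAP97-cKO (SD, n = 4). It was the measure with the smallest exact two-sided permutation p, 0.114, or 0.600 after Benjamini-Hochberg adjustment over the 6 measures, and the other 5 had exact permutation p-values of 0.286 to 1.0. No difference in the make-up of these families was detected with 4 mice per group.

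**Figure D4:**
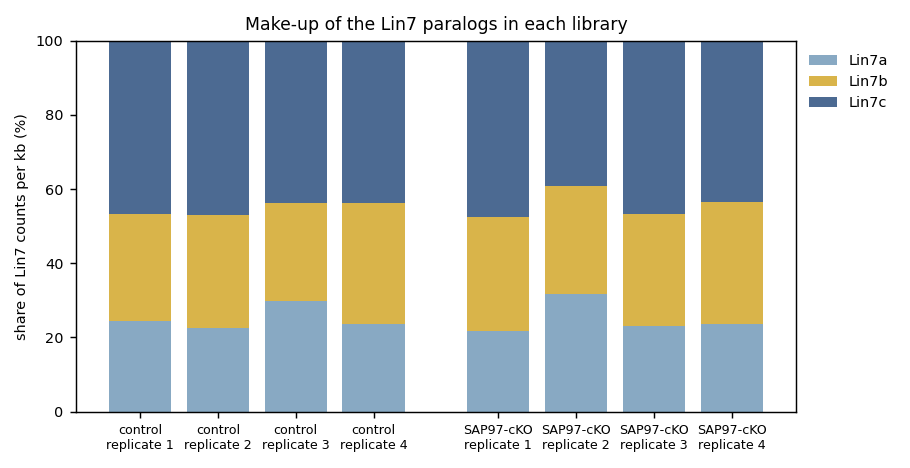
Share of Lin7a, Lin7b and Lin7c (stacked, y axis in percent) in their summed counts per kilobase of exon in each of the 8 libraries (x axis). Lin7a takes most in control replicate 3 (29.8%) and SAP97-cKO replicate 2 (31.8%), and 21.6% to 24.5% in the other 6.

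The wider polarity network was read from 6 lists of 50 genes in all, each of which had enough reads to be tested. None of the 50 was past the FDR of 0.25 in edgeR or limma-voom, where 0.295% of all genes were in edgeR, and DESeq2 placed 8 of them past it (6.36% of all genes). At an unadjusted p under 0.05 edgeR had 6 lower and 6 higher genes, or 24% of the 50 beside 11.7% of all genes. Of all genes tested 7.01% were lower and 4.73% higher at that p, the shares that stand beside each list count below. In 12 of the 50 the groups did not overlap, 6 lower and 6 higher, beside 6.25% of all genes. The median log2 fold change of the 50 was 0.098. The lists were written by hand with earlier results of these data known, and no test of a list was run.

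**Figure D5:**
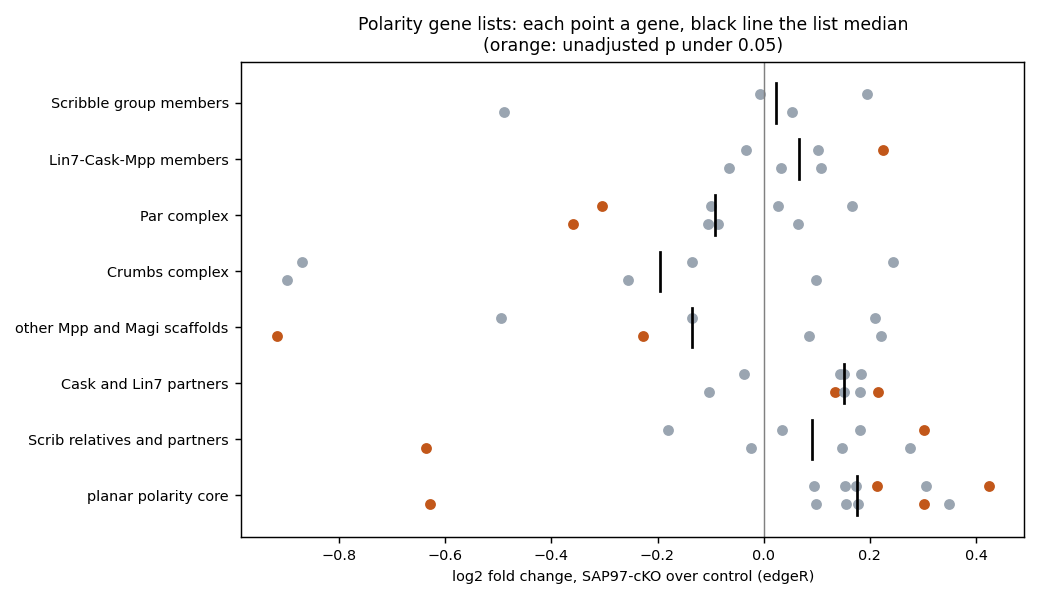
Log2 fold change (SAP97-cKO over control, x axis) of each gene in the 2 groups of partner genes and the 6 further polarity lists (y axis); each point is a gene, orange where the unadjusted edgeR p is under 0.05, and black lines are list medians. The medians of the Par, Crumbs and Mpp-Magi lists lie below 0 and those of the other 3 further lists above it, from -0.195 for Crumbs to 0.176 for planar polarity.

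The Par complex sets the apical side of epithelial cells and the axon in neurons, and Par, Crumbs and Scribble proteins restrain each other. Of its 8 genes, 2 were lower at an unadjusted p under 0.05, Pard6g and Pard3b. Pard6g, an adaptor of atypical protein kinase C, had 247 ± 23.4 normalized counts in control and 192 ± 17.1 in SAP97-cKO (SD, n = 4), which gave a log2FC of -0.36 (SE 0.12, edgeR adjusted p = 0.347). Pard3b had a log2FC of -0.31 (SE 0.13, edgeR adjusted p = 0.409), which was -0.096 (0.17) without the 3 libraries richest in choroid plexus genes and -0.17 (0.14) with the oligodendrocyte covariate. With the choroid plexus covariate the log2FC of Pard3b was -0.26, and with the meningeal fibroblast covariate -0.39. None of the 6 Crumbs complex genes had an unadjusted p under 0.05. Inadl, which encodes the Crumbs scaffold Patj, had 1084 normalized counts in control replicate 3 and 258 to 404 in the other controls, against 211 to 328 in SAP97-cKO. Its log2FC was -0.90 with an SE of 0.41, and -0.22 (0.19) without control replicate 3, -0.45 (0.35) with the choroid plexus covariate and -0.12 (0.20) without the 3 choroid plexus-rich libraries. With the oligodendrocyte covariate the log2FC of Inadl was -0.92, and with the meningeal fibroblast covariate -1.24. Mpp5, which encodes the Crumbs partner Pals1, had a log2FC of -0.14 (SE 0.070, edgeR adjusted p = 0.465), which was -0.058 (0.11) without the 3 choroid plexus-rich libraries. With the choroid plexus, oligodendrocyte and meningeal fibroblast covariates the log2FC of Mpp5 was -0.10, -0.10 and -0.11.

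Among the 7 other Mpp and Magi scaffolds 2 were lower at an unadjusted p under 0.05 and none was higher, beside 7.01% and 4.73% of all genes tested. Mpp6, a MAGUK that binds Lin7 as Mpp2 does, had 1493, 1447, 1455 and 1583 normalized counts in controls and 1334, 1314, 1265 and 1194 in SAP97-cKO. No SAP97-cKO value reached the lowest control, and log2FC was -0.23 (SE 0.065, edgeR adjusted p = 0.331). Mpp4, known from the retina, had 23.6 ± 7.55 normalized counts in control and 12.5 ± 2.51 in SAP97-cKO (SD, n = 4), which gave a log2FC of -0.92 (SE 0.32, edgeR adjusted p = 0.365). For Mpp4 it was -0.59 (0.45) without the 3 choroid plexus-rich libraries and -1.52 (0.69) with the meningeal fibroblast covariate.
The 9 partners of Cask and Lin7 held 2 genes with an unadjusted p under 0.05, both higher. Apba1, which encodes Mint1, had 7661, 7873, 7942 and 7786 normalized counts in controls and 8737, 8653, 8327 and 8591 in SAP97-cKO. The groups did not overlap, and log2FC was 0.13 (SE 0.054, edgeR adjusted p = 0.396). Kif17, a kinesin that carries NMDA receptor vesicles by way of the Mint1, Cask and Lin7 complex, had 600 ± 43.5 and 697 ± 37.7 normalized counts (SD, n = 4), which gave a log2FC of 0.22 (SE 0.082, edgeR adjusted p = 0.376). For Kif17 it was 0.079 (0.18) with the meningeal fibroblast and 0.13 (0.086) with the oligodendrocyte covariate. With the choroid plexus covariate it was 0.20, and without the 3 choroid plexus-rich libraries 0.21. The median log2 fold change of these 9 partners was 0.15.

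Of the 8 relatives and partners of Scrib, 1 was lower and 1 higher at an unadjusted p under 0.05. Lrrc1, which encodes Lano, a leucine-rich repeat relative of Scribble, had the smallest adjusted p of the 50 genes. It had 445, 585, 504 and 462 normalized counts in controls and 360, 353, 338 and 231 in SAP97-cKO, with no overlap. For Lrrc1 the log2FC was -0.64 (SE 0.15, edgeR adjusted p = 0.293), and with the meningeal fibroblast level as a covariate it was -0.12 (0.28). The summed CPM of the meningeal fibroblast genes was just apart between the groups, at 255 or more in control and 253 or less in SAP97-cKO. With the choroid plexus covariate the log2FC of Lrrc1 was -0.51, and with the oligodendrocyte covariate -0.49. Without the 3 choroid plexus-rich libraries it was -0.54. Lrrc1 was past the threshold with the replicate block (-0.65, edgeR adjusted p = 0.134), without scaling (-0.68, 0.249) and without a filter (-0.63, 0.210). Lrrc7, which encodes the synaptic relative Densin-180, had 2925 ± 429 and 3609 ± 290 normalized counts (SD, n = 4), which gave a log2FC of 0.30 (SE 0.11, edgeR adjusted p = 0.364). For Lrrc7 it was 0.18 (0.23) with the meningeal fibroblast and 0.19 (0.11) with the oligodendrocyte covariate. With the choroid plexus covariate it was 0.30, and without the 3 choroid plexus-rich libraries 0.33.
Of the 12 planar polarity genes, 1 was lower and 3 were higher at an unadjusted p under 0.05. Vangl1, a membrane protein that binds Scribble, had 238 ± 40.4 and 154 ± 29.5 normalized counts (SD, n = 4), which gave a log2FC of -0.63 (SE 0.17, edgeR adjusted p = 0.317). Without the 3 libraries richest in choroid plexus genes the log2FC of Vangl1 was -0.35 (0.21), and with the replicate block it was -0.63 and past the threshold (edgeR adjusted p = 0.248). It was -0.49, -0.50 and -0.47 with the choroid plexus, oligodendrocyte and meningeal fibroblast covariates. Fzd3, a Frizzled receptor of axon guidance, had 924, 862, 901 and 654 normalized counts in controls and 1026, 1109, 926 and 1059 in SAP97-cKO. The groups were just apart, and log2FC was 0.30 (SE 0.11, edgeR adjusted p = 0.371). Pard6g, Mpp6, Apba1, Kif17, Lrrc1, Lrrc7, Vangl1 and Fzd3 were the 8 genes past the threshold in DESeq2, with adjusted p-values of 0.0159 to 0.248. Without control replicate 1, where 10.2% of all genes were past it in edgeR, 9 of the 50 were past it. Among these 9 were Pard6g, Mpp6, Kif17, Lrrc1, Lrrc7, Vangl1 and Fzd3. Without SAP97-cKO replicate 1, where 711 of 16474 genes were past it in edgeR, 4 of the 50 were, among them Mpp6, Lrrc1 and Vangl1.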

How the data were processed

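The 8 hippocampal RNA-seq libraries were grouped by their GEO titles, 4 as control and 4 as SAP97-cKO. Per the submitters' notes and the study's methods, STAR 2.5.3a served as aligner with build mm10 (GRCm38.p5). The authors resampled reads to a common depth with PORT and deposited whole-number counts per Ensembl gene. The table also holds the authors' deposited log2 fold changes, p-values and q-values of a limma-voom comparison, which were not used. Genes were kept with filterByExpr (minimum count 10, minimum total 15), which left 16251 of 25834, scaled by TMM and tested by quasi-likelihood in edgeR 4.0.16 under R 4.3.3. The threshold was an FDR of 0.25, as in the study, and the standard error is the log2 fold change divided by the square root of F. Intervals are 95%. Single values were compared by exact permutation over 70 assignments (scipy 1.17.1). Coordinates, exon lengths and coding sequences came from GENCODE M21 for GRCm38. No library looked like a repeat of another (chi-square per gene between libraries, 9.08 to 67.2). The tests were checked on simulated counts. The alternatives used limma 3.58.1, DESeq2 1.42.0, other scalings and filters, covariates, a replicate block and leaving out each library.

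The genes named are the 10 partners, Dlg1, and from each of 6 polarity lists the 2 with the smallest p. The genes, lists and tests were chosen with earlier results of these data known. The lists of 8 markers each for neuron, hippocampal neuron, astrocyte, oligodendrocyte, microglia and endothelial cells, and of 10 each for meningeal fibroblast and choroid plexus, were written from general knowledge. The 6 meningeal fibroblast markers past the threshold are also in the study's own list of changed genes. All markers of these lists were counted in every library. Astrocyte sums were 5773 to 6941 CPM in control and 6060 to 7412 in SAP97-cKO libraries, microglia sums 395 to 523 and 385 to 489, endothelial sums 224 to 259 and 172 to 291, and hippocampal neuron sums 1004 to 1334 and 1008 to 1466. The 2 fits without choroid plexus-rich libraries or with the oligodendrocyte covariate, and a longer Lin7a, were added after seeing the data.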

Additional observations from a re-analysis of the deposited data

Results flagged for a closer look

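Llgl2 in SAP97-cKO replicate 2 stood apart from its group, with 72.7 normalized counts where the other 3 SAP97-cKO libraries had 29.1 to 33.6. The share of Llgl2 in the Lgl genes was likewise 3.20% in that library and 1.25% to 1.42% in the other 3. Both rest on the same 73 reads. In 34 groups of 4 values tested for such a gap these were the 2 found, where chance gives about 1 in 20 groups.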

How the results depend on the processing

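The number of partner genes past the threshold was 0 with all 8 libraries under every test, scaling, filter, covariate and block tried, and 0 to 2 with 1 library left out (2 without control replicate 1). Over all genes, the count of 48 became 1033 in DESeq2, 95 without scaling, 104 without a filter, 256 with the replicate block, 16 with the choroid plexus covariate, 23 without the 3 choroid plexus-rich libraries, 0 with the meningeal fibroblast (601 genes at an unadjusted p under 0.05) or oligodendrocyte covariate (782), 0 at an FDR under 0.05 (1907), and 0 to 1675 with 1 library left out, namely 1675 when control replicate 1 was left out, 711 for SAP97-cKO replicate 1, and 0 for control replicate 2 and SAP97-cKO replicates 3 and 4 (1403, 1259 and 1167 at an unadjusted p under 0.05). For the 50 further polarity genes the count of 0 became 8 in DESeq2, 1 without scaling, 1 without a filter, 2 with the replicate block (Lrrc1 and Vangl1), and 0 to 9 with 1 library left out (9 for control replicate 1, 4 for SAP97-cKO replicate 1). With at least 10 counts in every library Mpp4 was not tested. The cause was not tested. Replicate numbers were not taken to pair the mice. After removing group means, same-numbered libraries correlated from -0.0622 to 0.259 and differently numbered ones from -0.372 to 0.26. These ranges overlap and do not decide whether the numbers pair the mice. The block changed no call of the 10 genes, while the count over all genes went from 48 to 256. A paired sign-flip of the share measures cannot go below 0.125.

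Of 110 fits of the 10 genes with other settings, 11 changed the sign of an estimate, none past the threshold. Llgl1 was at 0.0015 without a filter, 0.13 with the oligodendrocyte covariate and 0.058 without the choroid plexus-rich libraries. With the meningeal fibroblast covariate Llgl2 was at 0.61, Lin7a at 0.025, Lin7b at -0.11 and Mpp3 at -0.22. With the choroid plexus covariate Lin7a was at 0.027 and Lin7b at -0.028. Lin7b was at -0.015 without scaling, and Mpp3 at -0.043 with the oligodendrocyte covariate. With 1 library left out Llgl1 ran from -0.064 to 0.026, Lin7a from -0.18 to 0.091, Lin7b from -0.011 to 0.086, Scrib from 0.020 to 0.096, Llgl2 from -0.89 to -0.30, Dlg5 from 0.11 to 0.28, Lin7c from -0.086 to -0.020, Cask from 0.079 to 0.15, Mpp2 from 0.18 to 0.30 and Mpp3 from 0.040 to 0.17. Dlg1 lost its call with the meningeal fibroblast (-0.40) and oligodendrocyte (-0.81) covariates and when control replicate 2 or SAP97-cKO replicate 3 or 4 was left out, and it ran from -1.0 to -0.78 with 1 library left out. The difference in the Lin7a share, -0.0749 percentage points, was 0.244 without division by length and -2.33 to 1.47 with 1 library left out, and that in the Lin7c share ran from -2.25 to 0.513. Llgl2 had the fewest reads of the 10 genes and the widest interval, and what set its spread was not tested.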
